A study of Homo sapiens with 8 samples.

Results

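Among the regions that were accessible in MCF10A cells at any time of a TGFβ1 time course, 5839 had a peak after 72 h of TGFβ1 and none in the solvent, 6 h or 24 h lists. To find them, the 4 deposited peak lists were merged wherever peaks shared at least 1 base, which gave 126658 regions, and the regions with a 72 h peak alone were kept. They were 4.61% of all merged regions, and 610 of them had an area under the curve (AUC) of 400 or more, the stricter subset used below. The regions were thus chosen by the measured presence of peaks, and the subset by the AUC, so counts and AUC values are given as a description, without a test. When every list was cut by AUC to the length of the shortest, 3758 regions met the rule. In the 72 h list that cut lay at or above an AUC of 400, so at most 610 of the 3758 belong to the 5839. The others shared a region with peaks of another list that the cut removed. Values given below for lists of equal length therefore describe mostly regions outside the 5839.

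MCF10A is a spontaneously immortalised, non-tumorigenic human mammary epithelial cell line, used here as wild-type cells of 1 line. Accessible chromatin was profiled by ATAC-seq in 2 replicates for each of 4 conditions, 8 libraries in all. The cells received either solvent (0.1% BSA in PBS) or 5 ng/ml TGFβ1 for 6, 24 or 72 h, in a medium that contained horse serum, EGF, insulin, hydrocortisone and cholera toxin in every group. The labels put the solvent cells at time 0 of the TGFβ1 course, and by the study's description they received solvent for 72 h and were collected the same time after plating as the TGFβ1-treated cells. The authors called peaks on both replicates of a condition together, so the files hold 1 list per condition without replicate values, and no difference between conditions could be tested over samples. The 95% Wilson intervals of shares and the 95% Newcombe intervals of differences given here cover counting error over regions only. Peaks numbered 86209 to 118433 per list, and each list started at an AUC of 200. A region absent from a list was therefore not called there, which does not show that it was closed. A peak lay within 1 kb of a start site for 7 of 7 epithelial marker genes in every list, and for 3 of 10 markers of other cell types in solvent and 4 of 10 in each TGFβ1 list.

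ATAC-seq reads out where a transposase can reach DNA, mostly at promoters and at distal elements such as enhancers. TGFβ1 signals through SMAD proteins and drives mammary epithelial cells through an epithelial-mesenchymal transition (EMT), in which matrix and adhesion genes are switched over. AP-1 (FOS and JUN proteins), RUNX and TEAD factors bind short DNA motifs in distal elements of epithelial and mesenchymal cells, and CTCF binds at many sites that organise chromosome loops.

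Shown first are windows of the summit base and 100 bases on each side, for 5 of the 72 h-only regions with the largest AUC and for the FN1-side region with the largest AUC, because they show how differently the motifs discussed below were laid out. They are plus-strand sequence of GRCh38, 5′ to 3′. Capitals mark the AP-1 motif (TGACTCA), the RUNX motif (TGTGGT) and the TEAD motif (GGAATG), or the reverse complement of each.
Intergenic window, nearest protein-coding gene SSTR4 (chr20:22922006-22922206): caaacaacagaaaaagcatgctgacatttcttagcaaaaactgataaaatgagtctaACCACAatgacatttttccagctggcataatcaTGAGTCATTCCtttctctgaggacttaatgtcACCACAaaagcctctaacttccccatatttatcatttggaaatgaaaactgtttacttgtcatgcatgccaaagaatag
Window beside a long non-coding RNA start, nearest protein-coding gene FAM114A2 (chr5:153901155-153901355): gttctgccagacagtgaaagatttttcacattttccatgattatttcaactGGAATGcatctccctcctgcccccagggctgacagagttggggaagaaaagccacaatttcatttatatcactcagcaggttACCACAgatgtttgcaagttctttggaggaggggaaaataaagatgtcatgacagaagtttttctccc
Intron of PITX1-AS1, nearest protein-coding gene MACROH2A1 (chr5:135310398-135310598): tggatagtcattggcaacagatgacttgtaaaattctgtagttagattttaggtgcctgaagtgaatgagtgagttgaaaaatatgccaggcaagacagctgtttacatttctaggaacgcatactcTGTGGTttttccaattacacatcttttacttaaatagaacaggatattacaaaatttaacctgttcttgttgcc
Intron of ANXA5 (chr4:121668572-121668772): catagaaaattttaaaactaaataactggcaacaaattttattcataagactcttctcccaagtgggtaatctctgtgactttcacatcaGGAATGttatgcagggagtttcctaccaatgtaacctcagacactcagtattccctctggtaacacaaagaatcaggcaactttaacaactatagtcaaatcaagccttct
Window upstream of FN1 (chr2:215465328-215465528): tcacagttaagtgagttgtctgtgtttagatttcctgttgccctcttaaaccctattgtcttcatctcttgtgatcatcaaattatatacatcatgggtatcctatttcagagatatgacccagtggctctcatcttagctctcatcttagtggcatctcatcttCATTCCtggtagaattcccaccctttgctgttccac
Intron of DNER (chr2:229492197-229492397): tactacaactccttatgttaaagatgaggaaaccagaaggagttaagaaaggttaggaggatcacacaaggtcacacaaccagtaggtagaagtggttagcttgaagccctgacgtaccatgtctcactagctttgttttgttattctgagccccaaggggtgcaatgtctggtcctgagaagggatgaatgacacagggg
The SSTR4-side window, with an AUC of 973.2, held an AP-1 motif that overlapped a TEAD motif and a RUNX motif on either side. The FAM114A2-side window (AUC 1025) held TEAD and RUNX, the MACROH2A1-side window (AUC 936.6) RUNX, and the ANXA5 (AUC 898.1) and FN1 (AUC 492.1) windows TEAD. None of these 3 motifs stood in the DNER window, although its AUC of 1168 was the second largest of all 72 h-only regions. Of the regions not shown with an AUC of 898.1 or more, those near GSDMC (1170), GNAI1 (967.8), GHITM (937.3) and SLC6A15 (913.5) also had none. The remaining one, near ARHGAP10 (899), had RUNX.

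Most 72 h-only regions were weak peaks, but their upper tail reached further than that of regions seen at 6 h or 24 h alone. The AUC had a minimum of 200, a median of 260.5, a 90th percentile of 404.6 and a maximum of 1170. Regions found only at 24 h had a median of 238.6 and a maximum of 579.7, and those found only at 6 h a median of 236.1 and a maximum of 587. An AUC of 400 or more was reached by 10.45% of 72 h-only regions (9.69 to 11.3), 1.82% of 24 h-only regions (1.47 to 2.27) and 2.29% of 6 h-only regions (1.78 to 2.94). By their 72 h peak, 37.5% of the regions with peaks at 24 h and 72 h and 57.0% of those in all TGFβ1 lists reached it. Between 600 and 1000 lay 98 of the 72 h-only regions and at or above 1000 a further 3, against none of the 4331 regions found only at 24 h and the 2575 found only at 6 h. At the other end, 43.7% of the 72 h-only regions lay between 200 and 250. Just inside the AUC limit of the subset stood a region at 400.5 and just outside it one at 399.8, with 51 regions between 400 and 410 and 63 between 390 and 400. The overlap rule decided few members narrowly, since no region came closer than 74 bases to a peak of another list and only 3 of the 72 h peaks overlapped another list by 100 bases or fewer.

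The share of a list that was found in no other list depended on peak strength. In the 72 h list, 30.5% of the peaks with an AUC of 200 to 250 were 72 h-only regions, 10.3% of those from 300 to 400, 2.79% of those from 400 to 600 and 0.438% of those from 600 to 1000. In the 24 h list the shares found only there were 30.4%, 4.75%, 0.432% and 0, and in the 6 h list 21.0%, 2.63%, 0.365% and 0. Near the lower limit the 72 h and 24 h lists thus had like shares of private peaks and the 6 h list a smaller one, and above it the 72 h list had the largest share in each of these bands.

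The 72 h-only regions were mainly distal. Counting as proximal a region within 3 kb of a transcription start site (TSS), or in a first exon or 5′ UTR, 1083 were proximal, or 18.5% (17.6 to 19.6). The proximal share was 27.1% of the 24 h-only regions, a difference of -8.58 percentage points for 72 h-only minus 24 h-only regions, and 38.3% of the 6 h-only regions. The proximal shares of 72 h-only and 24 h-only regions were 18.5% and 23.5% with lists of equal length. The share was 40.6% of the regions in all 4 lists, but 18.8% of those with peaks at 24 h and 72 h, where the difference of -0.295 percentage points had an interval of -1.55 to 0.982. With the start sites of protein-coding genes alone, 10.0% of the 72 h-only regions were proximal. Within the stricter subset, 14.9% were proximal (12.3 to 18.0). The summit lay in an intron for 56.7% of the 72 h-only regions, between genes for 37.8%, in a coding exon for 0.873%, in a 3′ UTR for 1.34% and in a 5′ UTR for 0.377%. The median distance from summit to the nearest TSS of any gene was 13377 bp, against 9160 bp for 24 h-only, 5793 bp for 6 h-only and 5681 bp for regions in all 4 lists. It was alike, at 13034 bp, for regions with peaks at 24 h and 72 h. More than 50 kb from any TSS lay 16.7% of the 72 h-only regions (15.7 to 17.6) and 12.03% of the 24 h-only regions (11.1 to 13.0). So did 16.4% of the regions with peaks at 24 h and 72 h (15.65 to 17.1).

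Their sequence was poor in G and C. The median GC content of the window around the summit was 42.8%, against 47.8% for 24 h-only, 45.3% for 6 h-only, 44.8% for 24 h and 72 h, and 50.2% for regions in all 4 lists. At least 1 CpG stood in 71.7% of the windows (70.6 to 72.9), the lowest share of the 6 classes. The same share was 75.9% for 24 h and 72 h, 82.9% for 24 h-only, 85.3% for 6 h-only and 88.8% for regions in all 4 lists. By chromosome, 72 h-only regions made up 6.05% of the regions on chromosome 4 (5.51 to 6.64) and 5.50% on chromosome 3 (5.03 to 6.01), but 2.30% on chromosome 19 (1.85 to 2.86) and 2.72% on chromosome 22 (2.11 to 3.497).

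The RUNX motif was more frequent in 72 h-only than in 24 h-only regions. TGTGGT, on either strand, stood in 1248 of the 4756 distal windows, or 26.2% (25.01 to 27.5), against 18.7% of all distal regions. When only 50 bases on each side of the summit were read, 17.0% of the 72 h-only regions had it. It stood in 15.4% of the distal 24 h-only windows (14.2 to 16.7), a difference of 10.8 percentage points (9.05 to 12.6), and in 13.9% of the 6 h-only windows (12.2 to 15.6). Regions with peaks at 24 h and 72 h had it in 22.7% (21.8 to 23.7), regions in all TGFβ1 lists in 19.1% and regions in all 4 lists in 17.9%. With lists of equal length, 28.0% of the 72 h-only windows (26.4 to 29.6) and 26.0% of the windows with peaks at 24 h and 72 h (24.5 to 27.6) had it, so those intervals overlapped. The same letters in reverse order, TGGTGT, stood in 11.3% of the 72 h-only windows, 13.3% of the 24 h-only windows and 12.04% of the windows in all 4 lists, so the 72 h-only regions had no surplus of a string of the same bases. Within windows of 40 to 50% GC, the RUNX share was 25.5% in 72 h-only (23.8 to 27.3), 16.4% in 24 h-only and 19.3% in regions of all 4 lists, and below 40% GC it was 27.1%, 12.2% and 18.4%. Proximal 72 h-only regions had the motif in 26.6% (24.1 to 29.3), against 13.3% of all proximal regions.

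AP-1 was the most frequent motif searched, at the level of all distal regions before GC content was considered. TGACTCA stood in 37.7% of the distal 72 h-only windows (36.3 to 39.1), and in 37.6% of all distal regions. The share was higher than in 24 h-only windows by 9.98 percentage points (7.89 to 12.1) and lower than in regions with peaks at 24 h and 72 h, where it was 42.0% (40.9 to 43.1). The shares lay closer with lists of equal length, at 41.1% of the 72 h-only (39.4 to 42.9) and 37.2% of the 24 h-only windows (34.4 to 40.2). Below 40% GC, AP-1 stood in 38.3% of the 72 h-only windows and 46.7% of those in all 4 lists. From 40 to 50% GC the shares were 38.0% (36.0 to 39.9) and 42.4% (41.7 to 43.0). From 50 to 60% GC they were 35.3% and 34.4%, and at 60% GC or more 30.5% of 59 windows and 19.7%. The reversed letters stood in 5.63% of the 72 h-only windows. Where the motif was present, its median distance to the summit was 26.5 bases, against 21.0 bases in 24 h-only and 27.0 bases in regions of all 4 lists. In proximal windows the 72 h-only regions had AP-1 in 36.5% (33.7 to 39.4), against 22.3% of all proximal regions.

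Along the AUC of the 72 h-only regions the RUNX share rose from band to band. The AP-1 share did not fall at every step and was lowest in the top band. From an AUC of 200 to 300, RUNX stood in 24.4% (22.9 to 25.9) and AP-1 in 38.9% (37.3 to 40.6) of 3201 distal windows. From 300 to 400 the shares were 27.9% and 35.5%, and from 400 to 600 they were 33.8% (29.5 to 38.4) and 35.9%. At 600 or more, in 84 windows, RUNX stood in 36.9% (27.4 to 47.6) and AP-1 in 26.2% (18.0 to 36.5). The last AP-1 interval rests on 22 windows. Regions with peaks at 24 h and 72 h also had RUNX more often with rising AUC, from 18.5% in the lowest band to 35.0% in the highest, and AP-1 in 40.4%, 48.0%, 41.9% and 34.6% over the 4 bands. Regions in all 4 lists had AP-1 more often with rising AUC, from 16.6% in the lowest band to 43.0% in the highest, and RUNX in 14.8% and 18.8%. Both motifs together stood in 8.10% of the 72 h-only windows (7.35 to 8.90), 3.33% of the 24 h-only windows (2.76 to 4.01) and 7.84% of the windows with peaks at 24 h and 72 h (7.26 to 8.46). Among 72 h-only windows, RUNX was found in 21.5% of those with AP-1 (19.6 to 23.5) and 29.1% of those without (27.5 to 30.8).

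**Figure D1:**
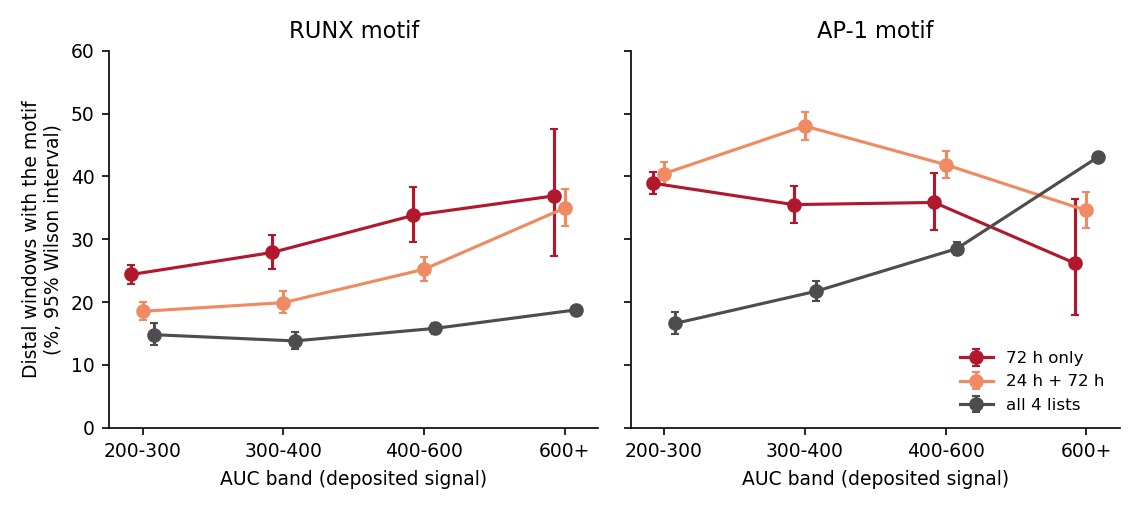
Share of distal windows with the RUNX (left) and AP-1 (right) motif (y axis, %, with 95% Wilson intervals) by AUC band (x axis) for regions found only at 72 h, at 24 h and 72 h, and in all 4 lists. In 72 h-only regions RUNX goes from 24.4% to 36.9% and AP-1 from 38.9% to 26.2%.

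CTCF and the E-box were scarcer than in regions found only at 24 h, as they also were in regions with peaks at 24 h and 72 h. A CTCF motif stood in 78 distal 72 h-only windows, 1.64% (1.32 to 2.04), against 7.003% of 24 h-only (6.16 to 7.95), 6.86% of 6 h-only, 2.10% of 24 h and 72 h (1.81 to 2.45) and 5.30% of all distal regions. The difference to 24 h-only regions was -5.36 percentage points (-6.36 to -4.43), and below 40% GC the shares were 0.753% and 6.534%. With lists of equal length, CTCF stood in 0.979% of the 72 h-only, 3.93% of the 24 h-only, 0.987% of the 24 h and 72 h windows and 0.942% of those in all TGFβ1 lists. The E-box CACCTG, which SNAI and ZEB repressors bind, stood in 13.6% (12.7 to 14.6), against 17.8% of 24 h-only, 13.3% of 24 h and 72 h and 17.6% of all distal regions. The 72 h-only and 24 h-only shares were 12.4% and 15.1% with lists of equal length. Within windows of 40 to 50% GC they were 15.3% (13.95 to 16.9) and 17.3% (15.5 to 19.2), and from 50 to 60% GC 26.3% (22.9 to 29.97) and 23.2% (20.6 to 26.1), so the E-box was not scarcer in every GC band. Within 50 bases of the summit it stood in 8.01% of the 72 h-only windows. Its reversed letters were also scarcer in 72 h-only than in 24 h-only windows, at 4.98% and 7.16%. TEAD (GGAATG) stood in 20.7% (19.6 to 21.9), against 15.5% of 24 h-only, 21.4% of 24 h and 72 h and 17.4% of all distal windows, while its reversed letters were at 5.89% and 6.15% in 72 h-only and 24 h-only windows. TEAD shares from lists of equal length were 24.6% in 72 h-only (23.1 to 26.1), 14.4% in 24 h-only and 21.3% in 24 h and 72 h windows (19.9 to 22.7). The letters AGATAA, bound by factors of the GATA family, stood in 12.4% of the 72 h-only windows, against 8.05% of 24 h-only, 11.4% of 6 h-only, 9.89% of 24 h and 72 h and 9.10% of all distal windows. From 40 to 50% GC they stood in 10.4% of 72 h-only (9.24 to 11.7), 12.1% of 6 h-only and 9.76% of all 4 lists (9.38 to 10.2). In 72 h-only and all 4 lists the shares were 17.5% and 14.9% below 40% GC. They were 6.87% and 4.51% from 50 to 60% GC, and 0 and 1.12% at 60% GC or more. The SMAD palindrome (GTCTAGAC or GTCTGGAC) was rare in every class, at 0.757% of 72 h-only (0.547 to 1.05), 0.504% of 6 h-only, 1.55% of 24 h-only, 1.21% of 24 h and 72 h, 1.35% of all TGFβ1 lists and 0.885% of all 4 lists. AP-1, RUNX or TEAD, at least 1 of the 3, stood in 65.9% of the distal 72 h-only windows (64.5 to 67.2), 49.4% of the 24 h-only, 41.6% of the 6 h-only and 67.2% of the 24 h and 72 h windows (66.1 to 68.2). These matches describe letters in the window, and no binding was measured.

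The 72 h-only regions were spread over many genes. Assigned to the protein-coding gene with the nearest TSS, they fell to 3653 of 19970 genes, or 18.3%, and those of the subset to 564 genes, or 2.82%. When the nearest TSS of any gene was taken, 9.71% of protein-coding genes had one. Of the 3653 genes, 2455 had a single 72 h-only region and the highest number was 14. Genes with more regions of any kind had them more often: 4.33% of the genes with 1 or 2 regions had a 72 h-only one, and 75.6% of those with 21 or more. Most of the 3653 genes already had a peak at a TSS in solvent (75.1%), as did 78.0% of all genes with at least 1 region. Assignment to the nearest gene does not show which gene a region acts on.

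TENM2, a teneurin adhesion protein, led with 14 of its 119 regions, of AUC 214.8 to 403.1, followed by FN1 with 12 of 41 and FLRT2, a fibronectin-leucine-rich transmembrane protein, with 11 of 82. GSDMC had 10, among them the 72 h-only region of largest AUC (1170), which lay between genes, 27220 bp from the nearest GSDMC start. CDH9, a cadherin, also had 10, all with an AUC of 328.4 or less and 8 of them 498174 bp or more from its start. HAS2, which makes hyaluronan, had 9, including 2 of AUC 662.3 and 807.3, both with a RUNX motif. Those 2 lay 166151 and 469499 bp from its start. PCDH9, NRG3 and EYS had 9 each. CTNNA3 had 8, as did 6 further genes, and was taken as the last of the leading 10 for its larger summed AUC. Of the 9 genes other than FN1, 72 h-only regions made up 11.8% to 20.4% of the regions, against 29.3% at FN1.

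FN1, which encodes fibronectin, had the largest group. Chained when at most 50 kb apart, 9 of the 72 h-only regions formed 1 group over 108.5 kb of chromosome 2 (215357173 to 215465627), which reached from beyond the 3′ end of FN1 to a summit 29355 bp from its TSS, upstream of the gene. Of the 15 merged regions in that span, the solvent list had a peak in 4, the 6 h list in 5, the 24 h list in 6 and the 72 h list in all 15. The 9 enter this count only at 72 h by the rule that chose them, so that step is no separate result. The AUC of the 9 regions was 205.6 to 492.1, with a median of 344.3. Of these, 5 had their summit in introns or exons of FN1 and 2 lay just beyond its 3′ end. RUNX stood in 4 of the 9 windows and TEAD in 1, while AP-1 stood in none. The peak at the FN1 promoter itself was present in every list, with an AUC of 881.9 in solvent and of 2782, 3956 and 4268 after 6, 24 and 72 h. AUC values of different lists are not known to be scaled to each other.

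**Figure D2:**
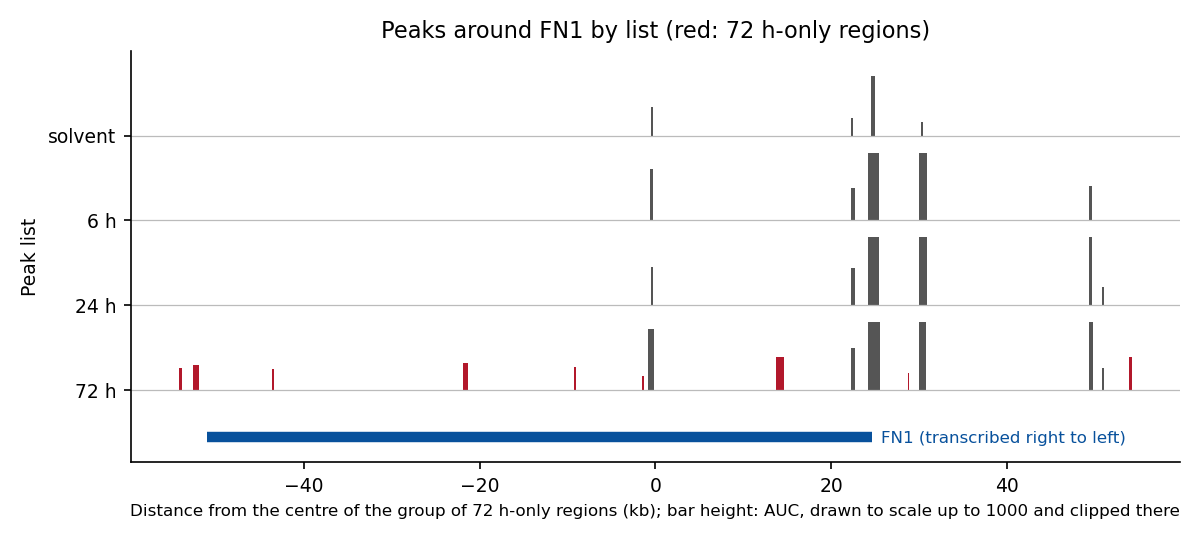
Peaks in each of the 4 lists (rows) around FN1, by distance from the centre of the group of 72 h-only regions (x axis, kb), with bar height as AUC up to 1000 and clipped above. Red bars are the 9 regions found only at 72 h, which by the rule that chose them have no counterpart in the 3 other lists.

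Other groups were smaller. Introns of CTNNA3, which encodes a catenin, held 6 of the 72 h-only regions over 89.7 kb, of AUC 264.8 to 687.5, and among 7 regions there 0, 0, 1 and 7 had a peak in the solvent, 6 h, 24 h and 72 h lists. KIAA1549L had 6 over 90.6 kb, where 0, 1, 2 and 8 of 8 regions had a peak. Groups of 5 had POSTN, SMURF2, HAS2, BCL10 with DDAH1, and CDC5L with SUPT3H as nearest protein-coding genes. The HAS2 group lay 463881 to 554674 bp from the HAS2 TSS. The 7 regions in its span of 91.1 kb had a peak in 2, 2, 2 and 7 cases. In each of these spans the 72 h-only regions are counted at 72 h alone by the rule, which fixes most of the step to 72 h. Over all 72 h-only regions, 27.3% had another within 50 kb (26.1 to 28.4), against 19.8% of 24 h-only and 19.5% of 6 h-only regions with another of their own class. The classes differ in size, and its part in that share was not tested. The closest peak of any other list lay a median of 6592 bp away, against 5155 bp for 24 h-only and 1837 bp for 6 h-only regions.

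Matrix genes had the highest share of 72 h-only regions among 11 gene lists. Their share of regions in all TGFβ1 lists was also the highest of the 11, at 18.3% against 14.3% of all regions. Found only at 24 h were 2.4% of their regions, against 3.4% of all regions. Of the 671 regions nearest to 32 matrix genes, 52 were 72 h-only, or 7.75% (5.96 to 10.0), against 4.61% of all regions, and 18 of the 32 genes, or 56.2%, had at least 1. Over all protein-coding genes that share was 18.3%, but the matrix genes had a median of 20 regions each, and of all genes with 11 to 20 regions 47.5% had a 72 h-only one. POSTN, which encodes periostin, had 7 of 21 regions, with AUC values of 219.1 to 351, and POSTN regions with a peak numbered 4, 11, 14 and 20 in the lists by time. The 7 enter that count only at 72 h by the rule that chose them. THBS1 (thrombospondin) and FBN2 (fibrillin) had 5 each, COL12A1 had 4 and TGFBI 3. COL3A1, COL4A1, SPARC and VCAN were among the 14 matrix genes with none. Without FN1 and POSTN, a comparison added after seeing the data, the share was 33 of 609 regions, or 5.42% (3.88 to 7.51), an interval that includes 4.61%.

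Epithelial junction and identity genes had a low share, with 8 of 370 regions, or 2.16% (1.10 to 4.21). Their shares of 24 h-only regions (1.9%) and of regions in all TGFβ1 lists (12.2%) were also below those of all regions (3.4% and 14.3%). Of these 31 genes, 5 had at least 1, or 16.1%, near the 18.3% of all protein-coding genes. Their median was 8 regions each, and of all genes with 6 to 10 regions 24.8% had a 72 h-only one. CDH1 (E-cadherin), EPCAM, GRHL2 and KRT5 were among the 26 with none. DSC3, a desmosomal cadherin, had 3, all 519841 bp or more from its TSS, and RBM47 had 2. AP-1 genes had 7 of 259 regions, or 2.70% (1.31 to 5.47), with none at FOS, JUN, JUNB or FOSL1. Ribosomal protein genes, taken as a housekeeping comparison, had 1 of 57, or 1.75% (0.310 to 9.29), the lowest share of the lists.

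The intervals of the other lists included 4.61%, as did those of the AP-1 and the ribosomal protein genes. TGFβ pathway genes had 22 of 445 regions, or 4.94% (3.29 to 7.37). Among them SMURF2, a ubiquitin ligase that turns over SMADs and receptors, had 5 of 23 with AUC values of 230.9 to 537.1, TGFB2 had 4 and TGFBR2 had 3, while SMAD7 and TGFBR1 had none. EMT transcription factor genes had 13 of 303, or 4.29%, with 6 assigned to SOX9 and 3 to ZEB2 but none to SNAI1, TWIST1 or ZEB1. The 6 lay 71620 to 818206 bp from a SOX9 TSS, and the 3 lay 669458 to 1623077 bp from a ZEB2 TSS. Integrin and laminin genes had 19 of 357, or 5.32%, with 4 at LAMA3 and 3 at LAMC1. Mesenchymal adhesion and contractility genes had 13 of 380, or 3.42%, with 4 each at CDH2 (N-cadherin) and CDH11. Protease genes had 10 of 185, or 5.41%, axon guidance genes 34 of 662, or 5.14%, and WNT pathway genes 18 of 387, or 4.65%. SEMA5A, a semaphorin, had 8 with AUC values of 209.4 to 461.9, and the WNT co-receptor gene LRP6 had 3 of its 7 regions.

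A few annotated transcript starts were reached at 72 h alone. Within 1 kb of a TSS that had no peak in the other lists, 55 protein-coding genes had a 72 h-only region, with a median AUC of 237.5, and 2 of these regions had an AUC of 400 or more. Those 2 were near LTF (lactotransferrin, 533.9) and SPACA3 (440.3), with summits 966 and 1003 bp from a TSS. A region counted where any part of it lay within 1 kb. Counted by peaks of the lists, 58 of the 19970 protein-coding genes, or 0.290%, had a peak at a TSS in the 72 h list alone. CNN1, which encodes the actin-binding protein calponin, had such a region in an intron, with an AUC of 251 and an AP-1 motif. It lay 598 bp from a TSS inside the gene, not at the start of the gene. CCL5, a chemokine gene, had one of AUC 342.3 and CLDN18, a claudin gene, one of AUC 345.1. LTF, SPACA3, CCL5 and CLDN18 were picked here after their values were seen.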

How the data were processed

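ATAC-seq libraries of MCF10A cells (2 replicates in each of 4 conditions) were processed by the authors with, per the submitters' processing notes, Trimmomatic 0.38, Bowtie2 2.4.5 (GRCh38), Picard, SAMtools 1.4.1 and Genrich 0.5, which called peaks on both replicates of a condition together. The deposited lists give for each peak its AUC, a signal value, and −log10 p and q values; the read depth is unknown, and q values served only as a description. Lists were assigned to conditions by the condition in their names. Peaks sharing at least 1 base were merged, and positions, TSSs and genes were taken from GENCODE 44. Motifs were searched on both strands from 100 bases before to 100 bases after the summit of the strongest peak. The CTCF motif was searched as a degenerate pattern. Intervals are 95% Wilson and Newcombe intervals. The merging was tested on simulated peaks. Python 3.11.15, numpy 2.4.6, pandas 2.3.3, scipy 1.17.1 and pysam 0.24.0 were used. Named were the regions of largest AUC, the 10 genes with the most 72 h-only regions, the leading genes of each list and a few marked as picked after their values were seen. The regions, gene lists and motifs were chosen with earlier results of these data known. Repeat content was not analysed here.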

Additional observations from a re-analysis of the deposited data

How the results depend on the processing

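No paired analysis was possible because the files hold 1 list per condition, pooled over replicates. The number of 72 h-only regions was 7553 with an overlap of 50% of both peaks, 4162 with an AUC of 400 or more in all lists, 610 with that limit for the 72 h peak only, 3758 with lists cut to 86209 peaks by AUC and 4941 without regions that had another list's peak within 1000 bases. At most 610 of the 4162, and of the 3758, belong to the 5839 regions. Shares under those settings therefore describe mostly other regions, whose peaks in another list fell below the cut. The proximal share was 24.6% with the 50% overlap, 14.9% with the AUC limit for the 72 h peak, 10.0% with protein-coding TSSs only and 8.10% with 1000 bases; it stayed within its interval in 3 other settings. The AP-1 share was 40.9% with the AUC limit in all lists, 34.3% with the limit at 72 h, 41.1% with equal lengths, 28.6% in the 50 bases on each side and 40.7% in the whole peak. The E-box share was 12.1% with the limit at 72 h, 12.4% with equal lengths, 8.01% in the 50 bases on each side and 16.5% in the whole peak. The RUNX share, for which alternatives were chosen after seeing the data, as were the reversed letters, was 34.3% with the limit at 72 h, 28.0% with equal lengths, 17.0% in the 50 bases on each side and 30.3% in the whole peak. The share of protein-coding genes was 22.6% with the 50% overlap, 14.1% with the AUC limit in all lists, 2.82% with the limit at 72 h, 13.0% with equal lengths and 9.71% by the nearest TSS of any gene. Shorter windows, fewer start sites and fewer regions lower the shares of windows, proximal regions and genes by construction, and for other shifts the cause was not tested. With lists of equal length the RUNX share of 24 h-only regions was 16.3% and of 6 h-only regions 13.6%, and AP-1 stood in 37.2% and 34.3% of their windows. Pooled lists give no replicate error, and the unknown depth limits what an absent peak shows.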

Other observations

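Constitutive distal regions near the 72 h-only ones had larger median ratios of AUC to solvent at 6, 24 and 72 h. Among distal regions in all 4 lists, the 2774 within 10 kb of a 72 h-only region had a median log2 ratio of AUC at 72 h to AUC in solvent of 0.64, and the 44340 others one of 0.52. At 24 h the medians were 0.69 and 0.62, and at 6 h 0.63 and 0.57. Near 24 h-only regions the medians were 0.50 at 72 h and 0.62 at 24 h, over 2394 distal regions. The AUC in solvent was alike, with medians of 636.3 near 72 h-only regions and 640.6 elsewhere. These values come from 1 pooled list per condition and were not tested. The ratios set AUC values of different lists against each other, which are not known to be on the same scale.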
